A study of Mus musculus with 9 samples.

Results

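The 8 immunoglobulin genes that these data list were followed across co-cultures of a mouse lung cancer line with T cells: the heavy chain constant genes Ighm, Ighg1 and Ighg3, the light chain constant genes Igkc and Iglc2, and the variable genes Ighv11-2, Igkv14-126 and Igkv4-91. They were taken by symbol, 8 of 19305 genes in all, and were chosen by their levels in the Th0 libraries against the others in earlier results of these data, so their levels there and the differences from Th0 are given as a description with no test. All 8 are listed in the table with Th9 (18816 genes), and 7 in the table with Th17 (18511 genes), where Ighg1 is not listed. In both tables, 0 other genes carry an immunoglobulin biotype. Genes with too few reads are not listed, so a gene that is not listed may still have had some reads.

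Lewis lung carcinoma (LLC1) cells, a line from a lung tumour of a C57BL mouse, were kept for 24 h in contact with T cells that the labels call Th0, Th9 or Th17, with 1 T cell for each tumour cell. After removal of the CD4-positive cells by sorting, total RNA of what remained was sequenced in 3 groups of 3 libraries. Th0, Th9 and Th17 are names for CD4 helper T cells that are kept unpolarised or driven towards making interleukin 9 or interleukin 17, and all 3 groups hold LLC1 cells, T cells and the same sort, with no library of LLC1 cells alone used here. The labels give neither the mouse strain nor the source of the T cells, nor whether a group's libraries came from separate cultures; p-values then measure only the spread between these samples, which may be technical.

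An antibody is made of 2 heavy and 2 light chains, each with a variable part that binds antigen and a constant part. In B cells a variable segment is joined to a constant gene by DNA rearrangement, so that 1 transcript holds both parts; Ighm gives the heavy chain of IgM, Ighg1 and Ighg3 those of IgG1 and IgG3, and Igkc and Iglc2 the kappa and lambda light chains. Ighv11-2 and Igkv14-126 are known as a pair that B-1a cells, a self-renewing type of B cell of the body cavities and spleen, use for antibodies against phosphatidylcholine. Ighm can also be transcribed without a variable segment, from a promoter near the heavy chain enhancer, and such sterile transcripts are known from T cells as well as B cells.

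The germline variable exons of the 3 variable genes are shown because the reads on them are set against those on the constant genes of their chains. Each line holds the last bases of the variable exon in GENCODE M21 on build GRCm38, read 5′ to 3′ on the gene's strand, and capitals mark the last cysteine codon in frame, which closes the third framework region of the variable domain. Ighv11-2 is at chr12:114048241-114048540 (minus strand), Igkv14-126 at chr6:67896345-67896642 (plus strand) and Igkv4-91 at chr6:68768555-68768854 (minus strand).
Ighv11-2: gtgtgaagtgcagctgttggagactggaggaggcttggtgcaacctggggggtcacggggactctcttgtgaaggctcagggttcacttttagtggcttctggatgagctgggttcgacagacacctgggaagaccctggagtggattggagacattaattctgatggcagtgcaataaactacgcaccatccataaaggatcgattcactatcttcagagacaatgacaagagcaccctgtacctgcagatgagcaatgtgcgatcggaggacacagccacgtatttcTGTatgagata
Igkv14-126: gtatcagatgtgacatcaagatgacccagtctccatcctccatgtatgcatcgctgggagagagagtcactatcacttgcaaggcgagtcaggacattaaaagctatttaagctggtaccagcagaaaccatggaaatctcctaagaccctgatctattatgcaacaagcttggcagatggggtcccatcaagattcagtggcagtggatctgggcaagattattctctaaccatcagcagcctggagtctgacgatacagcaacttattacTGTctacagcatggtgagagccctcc
Igkv4-91: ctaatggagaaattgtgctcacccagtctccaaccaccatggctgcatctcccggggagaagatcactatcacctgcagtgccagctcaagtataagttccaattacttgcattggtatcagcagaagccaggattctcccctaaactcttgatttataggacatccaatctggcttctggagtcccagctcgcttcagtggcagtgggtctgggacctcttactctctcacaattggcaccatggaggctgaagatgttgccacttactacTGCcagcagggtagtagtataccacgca
The 2 kappa exons match at 178 of 262 aligned bases (67.9%). Closest to Ighv11-2 among 182 other heavy chain variable genes was Ighv11-1, which is not listed in the tables, matches it at 349 of 353 bases and shares an unbroken run of 162 bases, so reads of the 2 genes could be confused in part. Igkv14-126 shared at most 44 bases in a row with any of 159 other kappa variable genes (Igkv14-111, 91.6% of 358 bases). For Igkv4-91 the longest shared run was 65 bases, with Igkv4-58, and 5 genes shared at least 50. Among the constant genes the longest runs were 79 bases between Iglc2 and Iglc3 and 88 bases between Ighg3 and Ighg2b, against 15 bases between Ighm and Ighg3. GENCODE annotates Igkv14-126 as an immunoglobulin variable gene, whereas RefSeq lists it as a variable segment pseudogene.

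Values are the deposited normalized counts, rounded to whole numbers. The 3 Th0 libraries stand in both tables with the same reads, at values 1.02 to 1.03 times as high in the table with Th17, and levels of Th9 and Th17 libraries, which were normalized apart, are set side by side without a test. Depth was about 12718836 to 17504907 assigned reads per library. Th0 replicate 1 stood apart: 31.1% of its total lay on Gm26917 and the ribosomal RNA genes of mitochondria (mt-Rnr1, mt-Rnr2), against 14.9% to 21.8% in the other 8 libraries. Several results are therefore also given without it.

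Ighm had the highest values of the 8 genes in Th0 before any correction for length, and its order against Th9 depended on the Th0 library. Ighm (ENSMUSG00000076617, chromosome 12, 113418558 to 113422730, minus strand) was at 191, 61 and 48 in Th0 replicates 1 to 3, at 75, 68 and 67 in the Th9 libraries, and at 4, 2 and 2 in the Th17 libraries, where Th0 read 196, 63 and 49. The 3 Th9 libraries were closely grouped and lay between Th0 replicate 1 and the 2 other Th0 libraries, while every Th17 library was below every Th0 library. The Th0 mean was 100 ± 79.1 and the Th9 mean 70.0 ± 4.36 (SD, n = 3 each), a log2 difference of -0.24 that turned to 0.36 without Th0 replicate 1. Against Th17 (2.67 ± 1.15, n = 3) the Th0 mean of 102.7 ± 81.1 was 38.5-fold higher, or 21-fold without Th0 replicate 1.

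Igkc, the kappa constant gene (ENSMUSG00000076609, chromosome 6, 70726435 to 70726966, plus strand), was at 46, 15 and 11 in Th0, at 1, 5 and 2 in Th9, and at 1, 0 and 3 in Th17. The groups did not overlap in either comparison. Its Th0 mean of 24.0 ± 19.2 was 9.0-fold that of Th9 (2.67 ± 2.08, n = 3), or 4.88-fold without Th0 replicate 1. Unlike Ighm, this gene was low in both Th9 and Th17 libraries.

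Iglc2, the lambda constant gene, was at 11, 2 and 0 in Th0 and at 0 in all 6 other libraries. With 12 approximate reads against 66 of Igkc over the 3 Th0 libraries, Iglc2 made 15.4% of the reads on these 2 light chain constant genes (95% exact binomial interval 8.21% to 25.3%). Without Th0 replicate 1 it was 2 reads of 28, 7.14% (0.877% to 23.5%). These intervals, and the others here, cover counting error only, since reads are not independent molecules.

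The 2 IgG constant genes were near the limit of detection. Ighg3 was at 6, 4 and 0 in Th0, at 1, 0 and 0 in Th9 and at 0 in all 3 Th17 libraries, so the groups overlapped. Ighg1 was at 5, 4 and 2 in Th0 and 4, 6 and 3 in Th9, which is the only listed member with a higher mean in Th9 (4.33 ± 1.53 against 3.67 ± 1.53, n = 3), with overlapping groups. A count of 0 in 1 library allows up to 3 reads.

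The 3 variable genes were detected mainly in Th0. Ighv11-2 (ENSMUSG00000096108) was at 52, 18 and 12 in Th0, at 0, 0 and 4 in Th9, and at 3, 0 and 3 in Th17. Every Th0 library was above every other library, and the Th0 mean of 27.3 ± 21.6 was 20.5-fold that of Th9 (1.33 ± 2.31, n = 3), or 11.3-fold without Th0 replicate 1. Igkv14-126 (ENSMUSG00000094345) was at 25, 12 and 11 in Th0, at 2, 1 and 2 in Th9, and at 0, 0 and 1 in Th17, again without overlap. Igkv4-91, at 6, 1 and 2 in Th0, was at 0 in all 6 other libraries. Over the 3 Th0 libraries 45 approximate reads fell on Igkv14-126 and 8 on Igkv4-91, and no other kappa variable gene is listed. Others with too few reads to be listed would not be seen here.

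**Figure D1:**
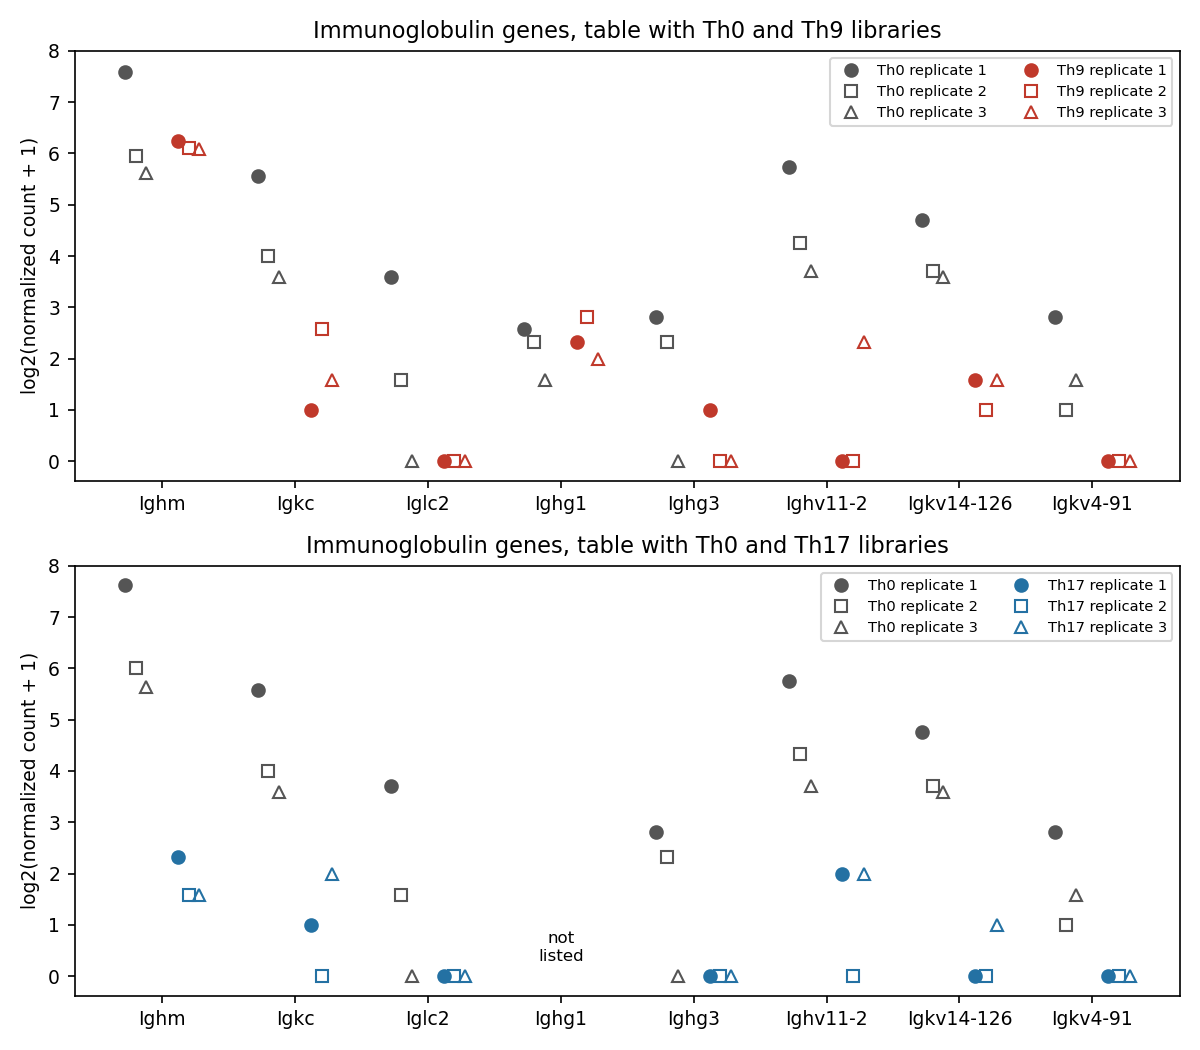
Level of each gene in each library as log2(normalized count + 1), with Th0 and Th9 libraries in the upper panel and Th0 and Th17 libraries in the lower panel; symbols give the replicate, filled for replicate 1. Th0 replicate 1 is the highest of the 6 libraries for 7 of 8 genes above and 7 of 7 below, in genes chosen for their Th0 level. The Th9 libraries lie near Th0 replicates 2 and 3 for Ighm and Ighg1.

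Of the 8 genes, 7 had a lower mean log2 level in Th9 than in Th0, with a median log2 difference of -1.76 and a range from -3.78 to 0.21. In 4 of the 8 every Th0 library was above every Th9 library, beside 16.0% of all 18816 listed genes. All 7 listed genes were lower in Th17, with a median of -3.26 and a range from -4.59 to -1.71, and in 5 of 7 every Th0 library was above every Th17 library, beside 9.30% of 18511 genes. The genes were chosen for this contrast, so nothing is read from these shares. Differences are of mean log2(value + 1), which understates the change of genes this low: 3 of the 8 genes (Ighm, Igkc and Ighv11-2) reached a mean of 10 over the 6 libraries, in each table. In bulk RNA, fewer cells of a type and less RNA per cell cannot be told apart.

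Set against each other per base of exon, the variable and constant genes were near equal in Th0. Ighv11-2 (461 bases) had 76 approximate reads over the 3 Th0 libraries and Ighm (1886 bases) 278, a ratio of reads per base of 1.12 (95% exact interval 0.856 to 1.45). Single Th0 libraries gave 1.11, 1.22 and 1.0. For the light chain, Igkv14-126 (358 bases) with 45 reads against Igkc (532 bases) with 66 had a ratio of 1.01 (0.678 to 1.5). Without Th0 replicate 1 the ratios were 1.13 (0.735 to 1.70) and 1.31 (0.717 to 2.4). Igkv4-91 reached 0.18 of Igkc per base (0.0747 to 0.376), and Iglc2 (612 bases) 0.158 (0.0778 to 0.295). Without Th0 replicate 1, Iglc2 was at 0.0669 of Igkc per base (0.00769 to 0.267) and Igkv4-91 at 0.171 (0.0332 to 0.559). So these 2 variable genes had about as many reads per base in Th0 as the constant genes of their chains, and Igkv4-91 had fewer.

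In the Th9 libraries the heavy chain genes were not in that proportion. Ighv11-2 had 4 reads there, all of them in Th9 replicate 3, against 220 of Ighm, a ratio per base of 0.0744 (0.0201 to 0.193). Libraries gave 0, 0 and 0.237, each below the 3 Th0 values. Ighv11-2 was chosen for its level in Th0 and reads are not independent, so this difference is a description with no test. For Igkv14-126, with 5 reads against 8 of Igkc, the ratio in Th9 was 0.929 (0.239 to 3.22) on few reads. In Th17 only 8 reads of Ighm and 6 of Ighv11-2 were found, and the ratio of 3.07 has an interval from 0.878 to 10.1.

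The ratio of Ighm to Igkc reads gave the same division of the libraries. It was 4.15, 4.19 and 4.50 in Th0 replicates 1 to 3, close to each other although the level of Ighm itself differed several-fold between them, and 82.0, 13.8 and 34.5 in the Th9 libraries. Over each group it was 4.21 (3.21 to 5.60) in Th0 and 27.5 (13.7 to 64.5) in Th9. All 3 Th9 libraries were above all 3 Th0 libraries; the ratio was built from genes chosen for their Th0 level, so it is given without a test. T cell markers were high in the same 3 Th9 libraries. The summed level of 17 such genes was 1804, 1523 and 1272 there, against 156, 83 and 60 in Th0. Of the 14 tested, 13 rose and 0 fell (limma, adjusted p under 0.05). Beside this, 13.4% of 14475 tested genes were called higher and 11.9% lower. Cd3e, a signalling chain of the T cell receptor, was at 5, 3 and 2 in Th0 and 86, 61 and 54 in Th9, and Ptprc, the leukocyte antigen CD45, at 51, 25 and 6 and at 551, 447 and 401. In the Th17 libraries, where Ighm was low, the sum over the 10 T cell genes listed was 46 to 63 against 57 to 144 in Th0, and 0 of 3 tested passed (limma; 1 at an unadjusted p under 0.05). Their part in the level of Ighm was not tested.

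**Figure D2:**
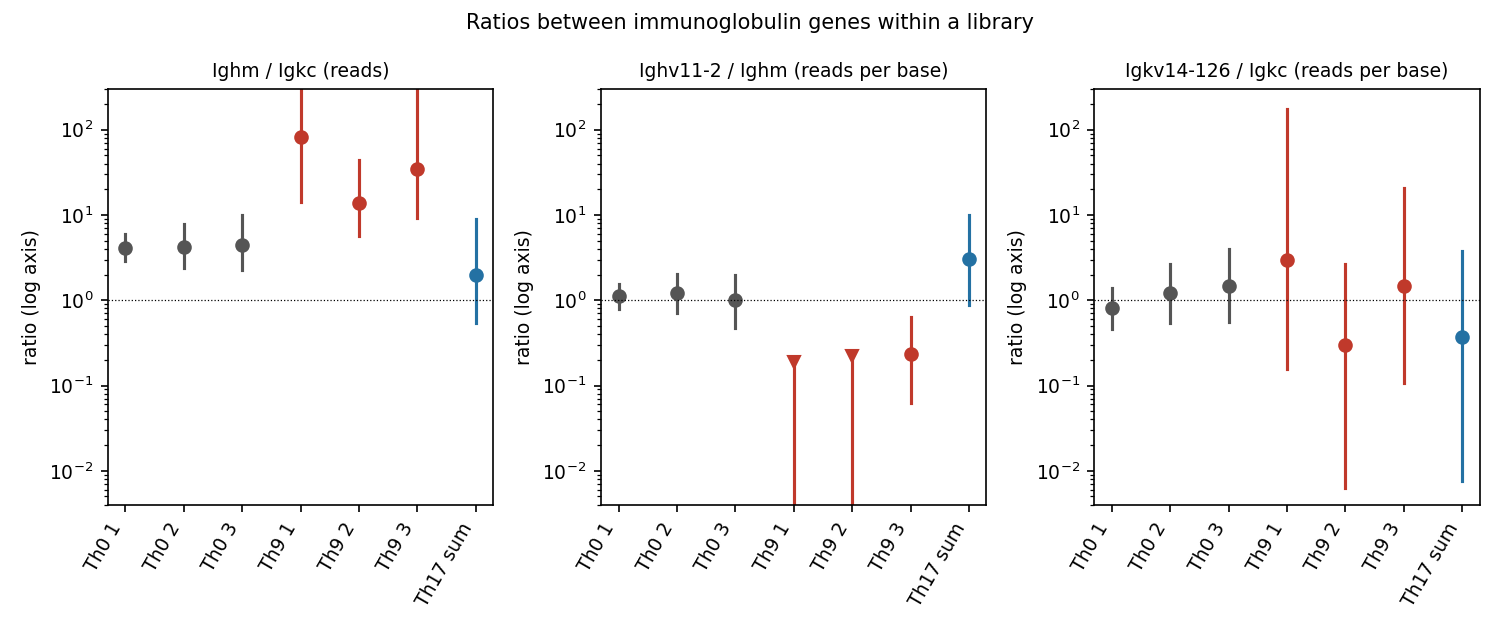
Ratios within libraries on log axes, with 95% exact intervals: reads of Ighm to Igkc, and reads per base of Ighv11-2 to Ighm and of Igkv14-126 to Igkc, for each Th0 and Th9 library and for the 3 Th17 libraries summed. Downward triangles stand at the upper limit where the ratio was 0, and bars are clipped at the axis ends. The Th9 libraries are above Th0 in the first panel (13.8 to 82.0 against 4.15 to 4.50) and below it in the second (0 to 0.237 against 1.0 to 1.22).

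Genes that mark B cells were then read from a limma-trend fit over all genes of each table (a mean of 10 or more across the table's 6 libraries was required, and a Benjamini-Hochberg adjusted p under 0.05 counted as passing). Most B cell genes were too low to be tested. Of 24 B cell identity genes 23 are listed in each table and 8 were tested in Th9 against Th0, of which 1 fell and 0 rose (11.9% of 14475 tested genes were called lower and 13.4% higher). The gene was Ebf1, an early B cell transcription factor that mesenchymal cells also express, at 54, 30 and 34 in Th0 and 16, 14 and 16 in Th9 (log2 difference -1.26, SE 0.29, limma adjusted p = 0.0071). Without Th0 replicate 1, Cd37, a tetraspanin of mature B cells, rose as well (adjusted p = 0.0166). Of the 9 tested in Th17, 0 passed (limma, with 1 at an unadjusted p under 0.05), where 0.390% of 14342 genes were called lower and 1.19% higher. These shares over all tested genes also stand beside the counts of every list below. Ebf1 was at 54, 34 and 37 in Th17 (adjusted p = 0.945). The median log2 difference of the listed B cell genes was -0.77 in Th9 and -0.91 in Th17, beside 0.00 for all listed genes in each. Most of these genes were low, and the genes beside them were not matched for level. Among the Th0 libraries replicate 1 was the highest for 20 of the 23 in the table with Th9 and 18 in the table with Th17. These medians were not computed without that library, so they are a description.

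Ms4a1, which encodes CD20 of mature B cells, was at 16, 10 and 7 in Th0, at 3, 3 and 2 in Th9 and at 2, 1 and 1 in Th17, with every Th0 library above every other, but its mean was too low for the test as set. With no filter on low values, or a mean of at least 3, it was called lower in both comparisons. Cd22, an inhibitory receptor of B cells, was at 7, 4 and 6 in Th0, 2, 1 and 2 in Th9 and 0, 1 and 1 in Th17. Cd79a, the signalling chain of the B cell receptor, was at 17, 16 and 13 in Th0, at 8, 18 and 10 in Th9 (adjusted p = 0.476) and at 5, 6 and 10 in Th17 (adjusted p = 0.152). Its partner Cd79b was at 8, 3 and 2 in Th0, at 9, 2 and 2 in Th9 and at 1, 1 and 0 in Th17. In all, the summed level of the 23 genes was 390, 253 and 184 in Th0, 194 to 202 in Th9 and 179 to 221 in Th17, overlapping in both comparisons.

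MHC class II genes, which B cells and other antigen-presenting cells express, were highest in Th0 replicate 1. Their sum over 8 genes was 165, 71 and 52 in Th0, 51 to 76 in Th9 and, in the other table, 24 to 52 in Th17 against 55 to 169 in Th0. Cd74, the invariant chain of class II, was at 83, 32 and 20 in Th0, at 28, 32 and 21 in Th9 (log2 difference -0.49, adjusted p = 0.423) and at 19, 11 and 10 in Th17 (-1.54, adjusted p = 0.119, or 0.0249 with library weights). H2-Aa, a class II alpha chain, was at 14, 3 and 5 in Th0, 2, 1 and 1 in Th9 and 0 in all 3 Th17 libraries. Against Th0, 7 of the 8 genes had a lower mean log2 level in Th9, and H2-DMa a higher one. H2-DMa was at 14, 8 and 6 in Th0 and 11, 19 and 18 in Th9 (log2 difference 0.76, limma adjusted p = 0.194). In Th17 it was at 16, 10 and 6 (limma adjusted p = 0.940). Cd74 and H2-DMa were the 2 class II genes tested, and they gave 0 calls in each comparison by limma. At an unadjusted p under 0.05 there were 0 in Th9 and 1 in Th17.

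Of the genes of antibody-secreting cells, several were not listed or near 0. Jchain, which links IgM units, and Tnfrsf17, a plasma cell receptor, are not listed, and Mzb1, a chaperone of IgM assembly, was at 5, 0 and 0 in Th0 and 3, 8 and 1 in Th9. Of 11 tested genes of this list 5 rose and 1 fell in Th9, and of 8 tested in Th17 0 passed (limma; 2 at an unadjusted p under 0.05). Those that rose were Ell2, Irf4, Cd93, Pim2 and Tnfrsf13b, genes that other cells express too; Irf4, a transcription factor of activated lymphocytes, went from 11, 2 and 2 to 28, 29 and 21 (log2 difference 2.49, SE 0.52, adjusted p = 0.0046). Tnfrsf13b no longer passed when Th0 replicate 2 (adjusted p = 0.0611) or 3 (0.0861) was left out. Xbp1, the secretory pathway regulator, fell in Th9 (-0.43, adjusted p = 0.0061), and no longer passed at an equal total per library (0.102) or without Th9 replicate 1 (0.0527).

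Genes linked to B-1 cells did not move together. Cd5, which B-1a cells and T cells both carry, was at 34, 29 and 32 in Th0, at 39, 30 and 33 in Th9 (adjusted p = 0.797) and at 26, 14 and 26 in Th17 (adjusted p = 0.292). Of 9 tested genes of the list, Spn, Zbtb32 and Plscr1 rose and Arid3a fell in Th9, and of 8 tested in Th17 Arid3a fell. Spn, the leukocyte surface protein CD43, went from 63, 52 and 43 to 162, 148 and 143 in Th9 (1.52, SE 0.17, adjusted p = 6.0e-05) and is found on T cells as well. Arid3a, a DNA-binding protein known for a role at the heavy chain locus, went from 662, 633 and 660 to 380, 370 and 421 in Th9 (-0.74, adjusted p = 9.9e-05). Its call in Th17 (-0.39, adjusted p = 0.0367) was lost without Th0 replicate 3 (0.141) or any Th17 library (up to 0.235, without replicate 3). The call was also lost at an equal total per library (0.169) and with a replicate block (0.0605). Zbtb32 lost its call without Th0 replicate 2 or any Th9 library (adjusted p up to 0.0942, without Th9 replicate 3), and Plscr1 without Th0 replicate 3 or any Th9 library (up to 0.165, without Th9 replicate 2). Rag1 and Rag2, which cut DNA in rearrangement, Dntt, which adds bases at the joints, and Igll1, of the surrogate light chain, are not listed.

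Among factors that drive immunoglobulin genes, Pou2f2, the lymphocyte octamer factor Oct-2, differed most: 30, 10 and 22 in Th0, 182, 180 and 188 in Th9 (log2 difference 3.21, SE 0.30, adjusted p = 1.6e-05) and 18, 15 and 26 in Th17 (adjusted p = 0.990). Its coactivator gene Pou2af1 was at 10, 7 and 1 in Th0, 5, 2 and 5 in Th9 and 2, 2 and 0 in Th17. Pou2f1, the octamer factor of most cells, did not pass (0.11 in each comparison, adjusted p = 0.393 and 0.538). Of the 8 tested, 3 rose (Pou2f2, Irf4 and Irf8) and Ebf1 fell in Th9, and 0 of 7 passed in Th17 (limma; 1 at an unadjusted p under 0.05). Among receptors that bind antibody, Trim21, the cytosolic antibody receptor, fell in Th9 from 80, 96 and 103 to 50, 55 and 55 (-0.78, adjusted p = 0.0054). Fcgrt, the neonatal Fc receptor, fell as well (-0.60, adjusted p = 0.0166) but lost its call without any 1 of 4 libraries, Th0 replicates 2 and 3 and Th9 replicates 1 and 2 (up to 0.0734), and with the same total per library (0.0678). Of the 3 tested in Th17, 0 passed (limma; 0 at an unadjusted p under 0.05). The myeloid Fc receptor genes Fcgr1, Fcgr2b, Fcgr3 and Fcgr4 are not listed.

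**Figure D3:**
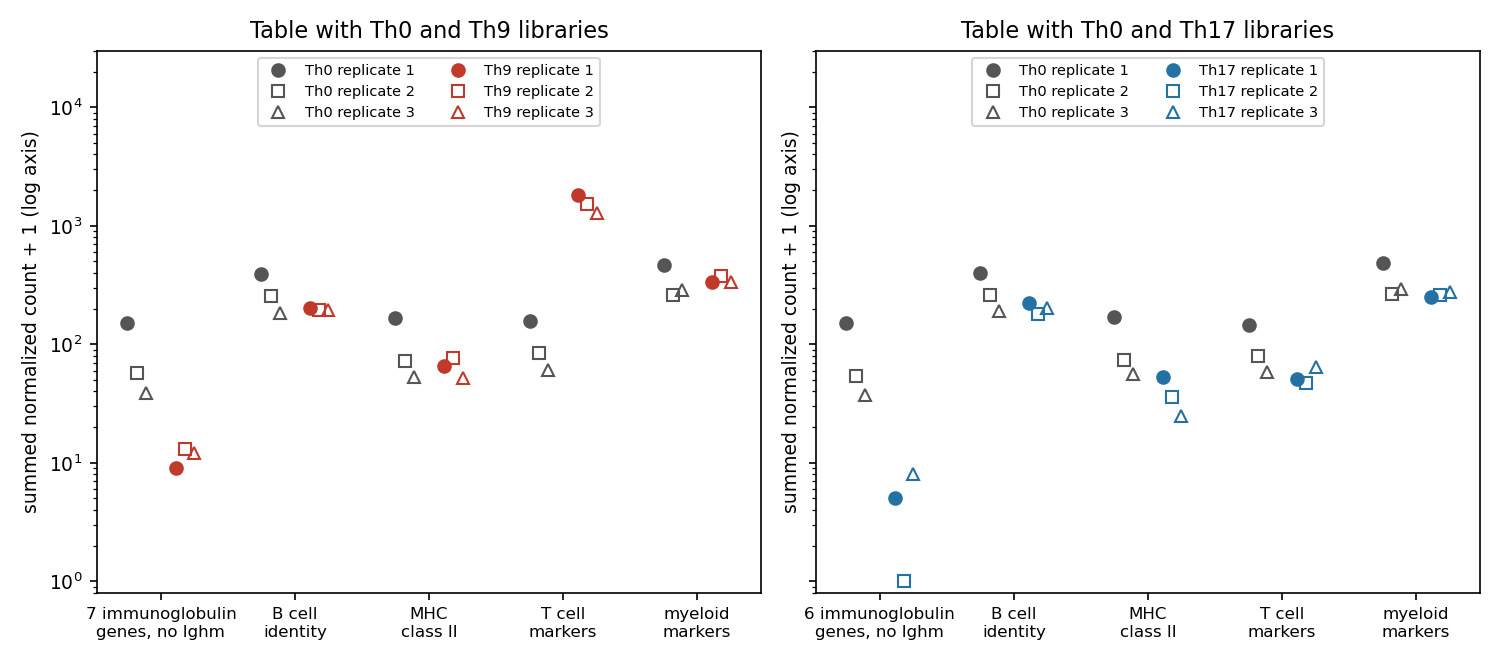
Summed normalized counts plus 1, on a log axis, of the immunoglobulin genes without Ighm and of marker lists in each library, for the table with Th9 (left) and with Th17 (right). The immunoglobulin sum was 38 to 151 in Th0 against 8 to 12 in Th9 on the left and 36 to 150 against 0 to 7 in Th17 on the right, in genes chosen for that difference; with Ighm, which is not plotted, it was 86 to 342 in Th0 against 78 to 83 in Th9. The T cell list is high in Th9 (1272 to 1804).

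Within Th0, the immunoglobulin genes were unequal between libraries. Each of the 8 was highest in replicate 1, at 1.67-fold (Ighg1) to 11-fold (Iglc2) the mean of replicates 2 and 3, with a median log2 difference of 1.70. The same held for 38.7% of all listed genes, with a median of 0.01. It also held for 55.0% of the 8486 genes with a Th0 mean of 3 to 100, with a median of 0.34. The 8 genes were chosen for their level in Th0, which 1 high library can carry, so nothing is read from this contrast. B cell identity genes were highest in replicate 1 in 20 of 23 (median 0.86), MHC class II genes in 7 of 8 (1.44), T cell markers in 12 of 17 (1.0) and myeloid markers in 7 of 9 (0.79). Among the myeloid genes Mpo, of neutrophil granules, was at 24, 1 and 4, S100a9 at 11, 4 and 4, and Lyz2, lysozyme, at 33, 15 and 11. LLC1 and mesenchymal markers were highest there in 1 of 9 (-0.38). The share of ribosomal and Gm26917 counts was highest in that library too, and its part in these differences was not tested.

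Some myeloid genes were also higher in Th0 than in Th9. Lyz2 was at 0, 2 and 1 in Th9 (log2 difference -3.36, SE 0.60, adjusted p = 0.0016), but at 14, 20 and 13 in Th17 (adjusted p = 0.842), where the immunoglobulin genes were low. S100a9 and Mpo were at 0 in all 3 Th9 libraries, and in Th17 S100a9 was at 1, 0 and 0 and Mpo at 1, 6 and 8. Over the 9 myeloid markers listed, the summed level was 261 to 468 in Th0, 332 to 376 in Th9 and 250 to 275 in Th17. Of the 7 tested, Flt3 and Cd14 rose and Lyz2 fell in Th9, and 0 passed in Th17 (limma; 1 at an unadjusted p under 0.05). The call of Flt3 was lost without Th9 replicate 1 (adjusted p = 0.0735) or 2 (0.110), and that of Cd14 without Th0 replicate 3 (0.0537) or Th9 replicate 1 (0.0716) or 2 (0.0563). Their part in the immunoglobulin levels was not tested.

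**Figure D4:**
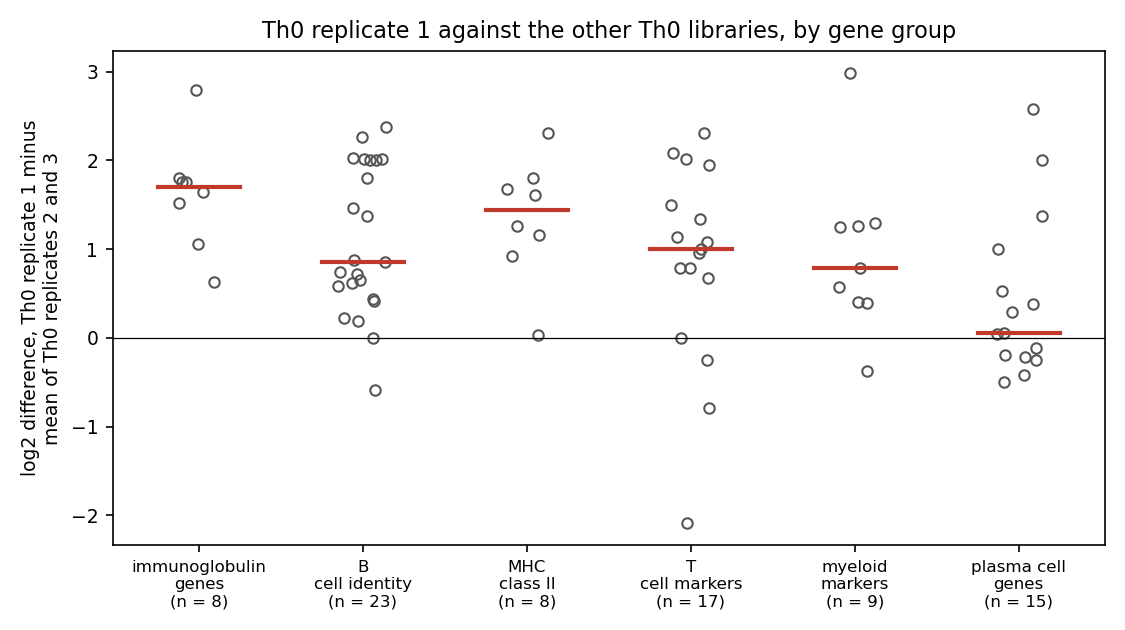
Log2 difference between Th0 replicate 1 and the mean of Th0 replicates 2 and 3 for single genes (circles) by group, in the table with Th9, with the median as a bar. The immunoglobulin genes, which were chosen for their level in Th0, all lie above 0 with a median of 1.70. The plasma cell genes are centred at 0.06.

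The genes whose levels most resembled the sum of the immunoglobulin genes over the 6 libraries of each table were sought among 14110 genes whose mean reached 10 in each. By the lower of the 2 Pearson correlations of log2(value + 1), the leading gene was Slc4a5, a bicarbonate cotransporter (r = 0.956 in each table), at 94, 57 and 56 in Th0, 43, 43 and 44 in Th9 and 29, 28 and 25 in Th17. It was followed by Inppl1 (0.972 and 0.945), Ighmbp2 (0.935 and 0.947), Trim11 (0.954 and 0.916), Gm16617 (0.931 and 0.908), Cables2 (0.901 and 0.911), Btbd9 (0.969 and 0.899) and the pseudogene RP24-366L10.4 (0.897 and 0.912). Ighmbp2 encodes a helicase and is no immunoglobulin gene. None of the 8 is on the B cell lists; the points are 6 libraries that share the same Th0 samples, and Th0 replicate 1 is the highest for each, so the values are a description.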

How the data were processed

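Total RNA of cells left after CD4-positive cells were sorted away was sequenced in 9 libraries (3 groups of 3), from 1 µg of RNA with a stranded total RNA kit (per the labels' protocols). The submitters' processing notes name, without roles, DESeq2 1.62, STAR 2.4.0a, Subread, featureCounts 1.4.5-p1 and the builds GRCm38 and mm10; whether counting used the strand is not given in the sources used here. The authors deposited scores per gene, as whole numbers. Judged from the values, these are each library's counts over its own size factor, with each table normalized apart, which was checked on the Th0 libraries, which differ between tables by 1 factor each (4, 6 and 4 of 18022 genes off by more than 1). Size factors were recovered from the steps of the values, and approximate reads are value times size factor; only 1 read number was possible for 63.7% to 100% of the values, by library.

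Tests used limma 3.58.1 in R 4.3.3 (lmFit, eBayes with a trend) on log2(value + 1), group as the only term, within each table, on genes with a mean of at least 10. On simulated data for Th9 and Th17 it recovered 96% and 92% of 2-fold changes (a log2 change of 1, in 100 genes each among 14317 and 14387). The changed genes were drawn only from those with higher Th0 means. All genes had the same dispersion, and no library stood apart as Th0 replicate 1 does. These rates therefore do not hold for low genes, such as most B cell genes here. Intervals of ratios are exact binomial at 95%. Exon lengths and sequences are from GENCODE M21, and sequence runs were compared with Biopython 1.88. The tables' columns were all used (0 left out).

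The members and lists were chosen with earlier results of these data known. Named were every member, B cell, T cell and myeloid genes always shown (Cd79a, Cd79b, Ms4a1, Jchain, Mzb1, Cd5, Cd74, Cd3e, Ptprc, Lyz2), the most abundant and the called genes of 12 lists, and 8 genes by correlation; other genes were chosen after their values were seen, and some that the rule covers are given by counts only or not reported here. Same-numbered replicates were checked for pairing by the correlation of their deviations from the group means.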

Additional observations from a re-analysis of the deposited data

How the results depend on the processing

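The 8 immunoglobulin genes kept the sign of their log2 difference in 147 of 150 combinations of gene, table and setting. The settings left out a library or changed scale or pseudocount. The genes were chosen for their level in Th0 against the other libraries, which largely fixed these signs beforehand, so nothing is read from this count. The sign turned for Ighm in Th9 without Th0 replicate 1 (0.36; leaving out 1 library gave -0.62 to 0.36) and for Ighg1 without Th0 replicate 3 (-0.077) or Th9 replicate 2 (-0.00299; range -0.077 to 0.42). Their median log2 difference moved with a pseudocount of 4 to -0.79 in Th9 and -2.16 in Th17, since that pseudocount shrinks low genes, and leaving out 1 library gave -2.41 to -1.06 in Th9 and -3.71 to -2.59 in Th17. The number of B cell identity genes called in Th9 was 2 with the same total per library, with array weights and without Th0 replicate 1 (Cd37, which rose, beside Ebf1), and 2 with no filter or a mean of at least 3 (Ms4a1 beside Ebf1); leaving out 1 library gave 1 to 2. In Th17 it was 1 with no filter and with a mean of at least 3 (Ms4a1), and 0 to 0 without 1 library. Over all genes, array weights gave 3302 higher and 3326 lower calls in Th9 and 1572 and 1789 in Th17, against 1937 and 1716, and 170 and 56. Without Th0 replicate 1 they were 2594 and 2742 in Th9 and 974 and 1378 in Th17. With the same total per library they were 2252 and 794 in Th9, and 119 and 20 in Th17. Without Th9 replicate 1 they fell to 1015 and 838, and without Th17 replicate 3 to 14 and 2. The cause was not tested. Same-numbered replicates correlated at 0.20, -0.02 and 0.24 in Th9 and at -0.06, -0.12 and 0.05 in Th17 in their deviations from the group means. Replicates with different numbers correlated at -0.23 to 0.11 in Th9 and at -0.05 to 0.12 in Th17. With 3 replicates per group these values cannot decide whether the numbers pair the libraries. With the replicate block the calls were 2114 and 1962, and 186 and 76, with 1 and 0 B cell identity genes. Cd74 and Ptprc then passed in Th17 (adjusted p = 0.0212 and 0.0219). Of the settings tried for other named genes, 788 gave the same call, 33 lost it and 6 gained it. Depth limits the genes at a few reads: Iglc2, Ighg1, Ighg3 and Igkv4-91 had a normalized count of at most 11 in any library of the table with Th9.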

Other observations

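Marker lists of other cell types were read beside the immunoglobulin genes. Markers of the LLC1 line and of mesenchymal cells were the most abundant, with sums over 9 listed genes of 111609 to 143787 in Th0 and 106046 to 111197 in Th9. Of the 9 tested, 4 fell in Th9 and 0 rose: Col3a1, a collagen chain, went from 19964, 18951 and 19426 to 7214, 7539 and 7864 (log2 difference -1.37, SE 0.10, limma adjusted p = 2.6e-06), and Col1a1, Krt8 and Sparc fell as well, Sparc without its call at the same total per library (adjusted p = 0.0784). None of the 9 tested in Th17 passed (limma; 0 at an unadjusted p under 0.05). Of CD8 T and NK cell markers, Klrd1, a receptor chain of NK and T cells, was the 1 tested and rose in Th9, from 2, 1 and 0 to 28, 25 and 16 (3.69, SE 0.54, adjusted p = 0.00042); 0 of 3 listed were tested in Th17. Of the 2 red cell and platelet markers tested, Itga2b, an integrin of platelets, fell in Th9 from 146, 89 and 112 to 76, 63 and 73 (-0.68, adjusted p = 0.0209), but not without Th0 replicate 3 or any Th9 library (adjusted p up to 0.0915, without Th9 replicate 2), and 0 passed in Th17 (limma; 1 at an unadjusted p under 0.05).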
